A study of Mus musculus with 70 samples.

Results

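The genes described here are 10 transcripts by which neutrophils are commonly recognized: the alarmins S100a8 and S100a9, the receptors Cxcr2, Csf3r, Trem1 and Il1r2, the proteases Mmp8 and Mmp9, and the secreted proteins Retnlg and Chil1. They were taken by symbol as 10 of the 55487 named lines in each of 4 count tables, and they were chosen by their high counts in treated tumors on day 3, seen in an earlier look at these data. Counts and differences of that comparison are therefore given as a description and support nothing on their own. All 10 had a line in every table.

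Neutrophils are short-lived white blood cells that leave the marrow, follow CXC chemokines into injured tissue through the receptor Cxcr2, and are produced and kept alive by granulocyte colony-stimulating factor acting on Csf3r. They carry ready-made proteases in granules and are rich in S100a8 and S100a9, calcium-binding proteins that pair as calprotectin and act as danger signals once outside the cell. In tumors they can be tumoricidal or can aid growth, and tissue damage is a classical trigger of their entry.

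C57BL/6 mice of both sexes, 6 to 8 weeks of age at purchase, carried tumors of B16F10, a transplantable mouse melanoma line, on both flanks, and received unilateral sham ablation (control, CON) or unilateral partial histotripsy, which breaks tissue apart mechanically with focused ultrasound and without heat. The ablated tumor is the histotripsy-treated tumor (HT) and the intact tumor on the other flank of an ablated mouse is the histotripsy-abscopal tumor (ABS). Tumors were taken 3 or 7 days later and flow-sorted by CD45, the surface protein of blood-derived cells, and RNA of each sort was sequenced with QuantSeq, which reads the 3' end of transcripts. The CD45+ immune cells gave 4 control, 6 treated and 7 abscopal libraries on day 3 and 10, 3 and 4 on day 7, and the CD45- cells, melanoma cells with their supporting cells, gave 4, 7 and 7 on day 3 and 11, 3 and 4 on day 7. Every group shares strain and tumor line, treated and abscopal tumors can come from the same mouse, groups were not randomized, and no sex, batch or mouse is given for a library. A p-value of a difference below thus sets it against the spread between libraries within the groups of a fit, with libraries treated as independent.

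Depth was 887798 to 2824959 counts in CD45+ libraries and 1080212 to 3820705 in CD45- libraries. Ptprc, which encodes CD45, had 929 to 2916 counts in each CD45+ library and 0 to 3 in each CD45- library. Levels are counts per 1000000 counts of a library (CPM), which for 3' reads do not scale with transcript length. Ly6g, the antigen that defines mouse neutrophils in cytometry, was low in CD45+ libraries, with group medians of 0.975 to 3.03 CPM and a lowest value of 0. Treated replicate 3 of day 3 held 36.2 CPM, 60 of the 69 counts of its group, and no other group passed 6.17 CPM. In each CD45- library Ly6g was 0. The label of the 10 as neutrophil genes therefore rests on lists and not on this defining marker. In bulk RNA, more cells of a type and more RNA per cell cannot be told apart.

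The 10 genes lay in the CD45+ fraction. Pooled over 34 CD45+ libraries, S100a8 stood at 1724 CPM and S100a9 at 1090, against 0.320 and 0.0800 over 36 CD45- libraries. Mmp9 had the highest pooled level of the 10 in CD45- cells, at 0.686 CPM, and 45.7 in CD45+ cells. No gene passed 12 counts in a CD45- library, and 275 of the 360 values there were 0. The 12 counts were Mmp9 in a treated tumor on day 3, where another treated library held 11 counts of Il1r2. The 10 genes together made up 0 to 22 counts of a CD45- library, at most 0.000879% of its total, so 0 of the 10 passed the filter on low counts and none was tested in that fraction. Without the filter 1 gene was called there, Mmp9 in abscopal against control tumors of day 7, from 12 counts in 4 libraries against 3 counts in 11. In CD45+ cells all 340 values were above 0, and the 10 genes took 0.0583% to 2.84% of a library's counts.

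On the genome (GRCm38) S100a8 lies at chr3:90668978-90670035 on the plus strand and S100a9 at chr3:90692632-90695721 on the minus strand, 22596 bases apart, in the S100 gene cluster. The remaining genes are spread over other chromosomes, Cxcr2, Il1r2 and Chil1 on chromosome 1, Mmp9 on 2, Csf3r on 4, Mmp8 on 9, Retnlg on 16 and Trem1 on 17. All 10 are protein coding. Il1r2 overlaps the antisense gene Gm16894 and the unclassified transcript Gm37347, and Trem1 overlaps a pseudogene, and since the strand setting of the counting is not given in the sources used here, their counts are uncertain to that extent.

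Promoter windows, from 250 bases before to 50 bases after the RefSeq start on GRCm38.p6, were available for 9 of the 10 genes, Mmp9 being the exception. They were searched on both strands for motifs of factors with a textbook role in granulocyte genes: a C/EBP pair written TTGCNNAA and the PU.1 site GAGGAAGT. The C/EBP letters occurred in 3 of the 9 windows and in 10.8% of all 32851 windows, and the PU.1 letters in 2 of the 9 and in 3.2% of all. These matches are a description of letters, with no measure of binding. The 4 windows with any match are printed because they hold the alarmin pair, whose levels followed each other most closely, and Mmp8 and Retnlg, the 2 genes that did not pass the test on day 3. Capitals mark the matches, each given by the position of its first base relative to the start: PU.1 at -172 in S100a8 (chr3:90668821-90669120, plus strand), C/EBP at -236 in S100a9 (chr3:90695672-90695971, minus strand), PU.1 at -221 and C/EBP at -19 in Mmp8 (chr9:7558179-7558478, plus strand), and C/EBP at -246 in Retnlg (chr16:48872358-48872657, plus strand).
S100a8: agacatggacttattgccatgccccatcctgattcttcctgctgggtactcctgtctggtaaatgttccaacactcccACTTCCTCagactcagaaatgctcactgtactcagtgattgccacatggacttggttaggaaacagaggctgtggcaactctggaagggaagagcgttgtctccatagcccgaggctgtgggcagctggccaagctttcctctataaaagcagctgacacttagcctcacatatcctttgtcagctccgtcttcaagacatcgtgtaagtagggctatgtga
S100a9: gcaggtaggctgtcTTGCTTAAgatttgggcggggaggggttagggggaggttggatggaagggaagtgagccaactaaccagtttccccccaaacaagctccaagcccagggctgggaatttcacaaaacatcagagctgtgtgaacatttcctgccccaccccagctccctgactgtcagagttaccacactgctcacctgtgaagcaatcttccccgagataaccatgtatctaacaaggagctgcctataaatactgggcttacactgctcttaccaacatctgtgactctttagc
Mmp8: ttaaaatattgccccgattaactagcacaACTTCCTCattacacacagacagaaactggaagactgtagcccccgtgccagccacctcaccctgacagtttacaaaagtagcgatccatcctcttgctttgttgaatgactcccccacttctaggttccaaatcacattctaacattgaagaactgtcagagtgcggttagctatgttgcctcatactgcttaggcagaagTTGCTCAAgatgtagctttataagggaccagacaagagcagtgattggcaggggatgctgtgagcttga
Retnlg: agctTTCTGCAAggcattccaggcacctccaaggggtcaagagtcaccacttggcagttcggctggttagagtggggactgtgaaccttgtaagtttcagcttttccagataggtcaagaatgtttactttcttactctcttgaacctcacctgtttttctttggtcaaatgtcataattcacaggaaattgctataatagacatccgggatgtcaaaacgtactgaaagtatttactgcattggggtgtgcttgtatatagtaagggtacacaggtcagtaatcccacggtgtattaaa

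In CD45+ cells of day 3, treated tumors were compared with control tumors to ask how ablation changed the immune cells of the ablated tumor. All 10 genes had a positive log2 fold change, between 1.06 and 3.86, with a median of 2.42 where the median of all 10264 genes tested was -0.01. The edgeR quasi-likelihood test over all genes called 8 of the 10 higher at an adjusted p under 0.05, beside 6.21% of all genes called higher. Mmp8 and Retnlg were the 2 not called. Among all genes, 637 were called higher and 163 lower. When TMM factors were replaced by plain library totals the split was 414 and 663, a scaling that moved the median of all genes to -0.22 and left the 10 genes between 0.75 and 3.53 with 8 called. The treated group was uneven: replicate 3 held the highest level of 9 of the 10 genes, and replicate 5 the lowest level of 8. Without replicate 3, or without control replicate 1, 2 or 3, the number called was 4 in each case, and it ranged from 4 to 9 over the 10 fits that each left out 1 library.

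S100a8, a subunit of calprotectin, measured 193, 464, 1334 and 1536 CPM in the 4 control libraries, and 796, 2614 and 14404 CPM as the lowest, median and highest of the 6 treated libraries. Treated replicates 2, 3, 4 and 6 were above all controls, and replicates 1 and 5 lay within the control range. The log2 fold change was 2.69 ± 0.74 (SE, n = 6 and 4), and 1.61 without treated replicate 3, when the gene was no longer called. S100a9, its partner, measured 130, 266, 721 and 924 CPM in controls and 385, 1301 and 10868 CPM in treated libraries. Here too 4 of 6 treated libraries exceeded all controls and the groups overlapped. The log2 fold change of S100a9 was 2.91 ± 0.80, and 1.55 without treated replicate 3, again not called. The ratio of S100a8 to S100a9 counts was 1.49 to 1.85 in controls and 1.33 to 3.17 in treated libraries, with the top value in treated replicate 4, where S100a8 was high (3016 CPM) and S100a9 (952 CPM) was close to the highest control.

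Among the receptors, Cxcr2 binds the CXC chemokines that draw neutrophils in. It measured 2.89, 4.96, 26.8 and 25.3 CPM in controls, and 13.6, 47.7 and 125 CPM as the lowest, median and highest treated libraries. The controls thus fell into a low and a high pair, and 4 treated libraries stood above both. The log2 fold change was 2.27 ± 0.64, and the call was lost in 6 of the 10 fits that each left out 1 library. Csf3r, the receptor of granulocyte colony-stimulating factor, measured 10.6, 13.2, 30.7 and 41.3 CPM in controls and 25.0, 61.4 and 193 CPM in treated libraries. Only treated replicates 2, 3 and 6 passed the highest control. Its log2 fold change was 2.08 ± 0.54.

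Trem1, an amplifier of inflammatory signaling on myeloid cells, measured 35.6, 48.0, 101 and 78.8 CPM in controls and 89.5, 284 and 616 CPM in treated libraries. Treated replicate 5 alone fell within the control range. The log2 fold change was 2.57 ± 0.54 and the gene was called in all 10 fits that left out a library. Il1r2, the decoy receptor that binds interleukin-1 without signaling, was the most even gene in controls, at 167, 194, 225 and 216 CPM. It ranged from 280 to 1206 CPM in treated libraries with a median of 527, and the groups did not overlap. Its log2 fold change of 1.86 ± 0.34 had the smallest error of the 10, and it was the gene for which treated replicate 6, not 3, was highest.

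The proteases parted. Mmp9, the granule gelatinase that degrades basement membrane collagen, measured 3.85, 10.5, 25.5 and 32.3 CPM in controls and 49.9, 94.8 and 295 CPM as the lowest, median and highest treated libraries. Every treated library was above every control. The log2 fold change was 3.16 ± 0.57, and it stayed called in all 10 fits that left out a library, between 2.65 and 3.62. Mmp8, the neutrophil collagenase, measured 25.0, 35.8, 95.5 and 114 CPM in controls against 35.4, 110 and 201 CPM in treated libraries. The groups overlapped, and 3 treated libraries exceeded all controls. Its log2 fold change of 1.06 ± 0.47 did not pass (adjusted p = 0.178).

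Read as counts within a library, Mmp9 stood at 0.154 to 0.292 of Mmp8 in controls, 0.124 to 0.383 in abscopal tumors and 0.478 to 2.39 in treated tumors of day 3. The lowest treated library was thus above the highest of the other groups of that day. On day 7 the ratio was 0.407 to 0.581 in treated, 0.216 to 0.378 in abscopal and 0.196 to 1.25 in control tumors, which overlapped the treated ones. The ratio was chosen after its values were seen and was not tested.

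Retnlg, a resistin-like protein of neutrophils, measured 13.5, 40.8, 148 and 140 CPM in controls and 46.1, 180 and 877 CPM in treated libraries. Its log2 fold change of 2.11 ± 0.79 was among the least precise of the 10 and did not pass (adjusted p = 0.106). Without treated replicate 5, the lowest of the group, it was called. Chil1, a chitinase-like protein without enzyme activity, was the least abundant gene, at 1.92, 3.31, 3.92 and 4.90 CPM in controls. Treated libraries held 5.19, 31.3 and 122 CPM as lowest, median and highest, all above the controls, with replicate 5 only just so. The log2 fold change of 3.86 ± 0.71 was the largest of the 10 and stayed called in all 10 fits that left out a library.

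**Figure D1:**
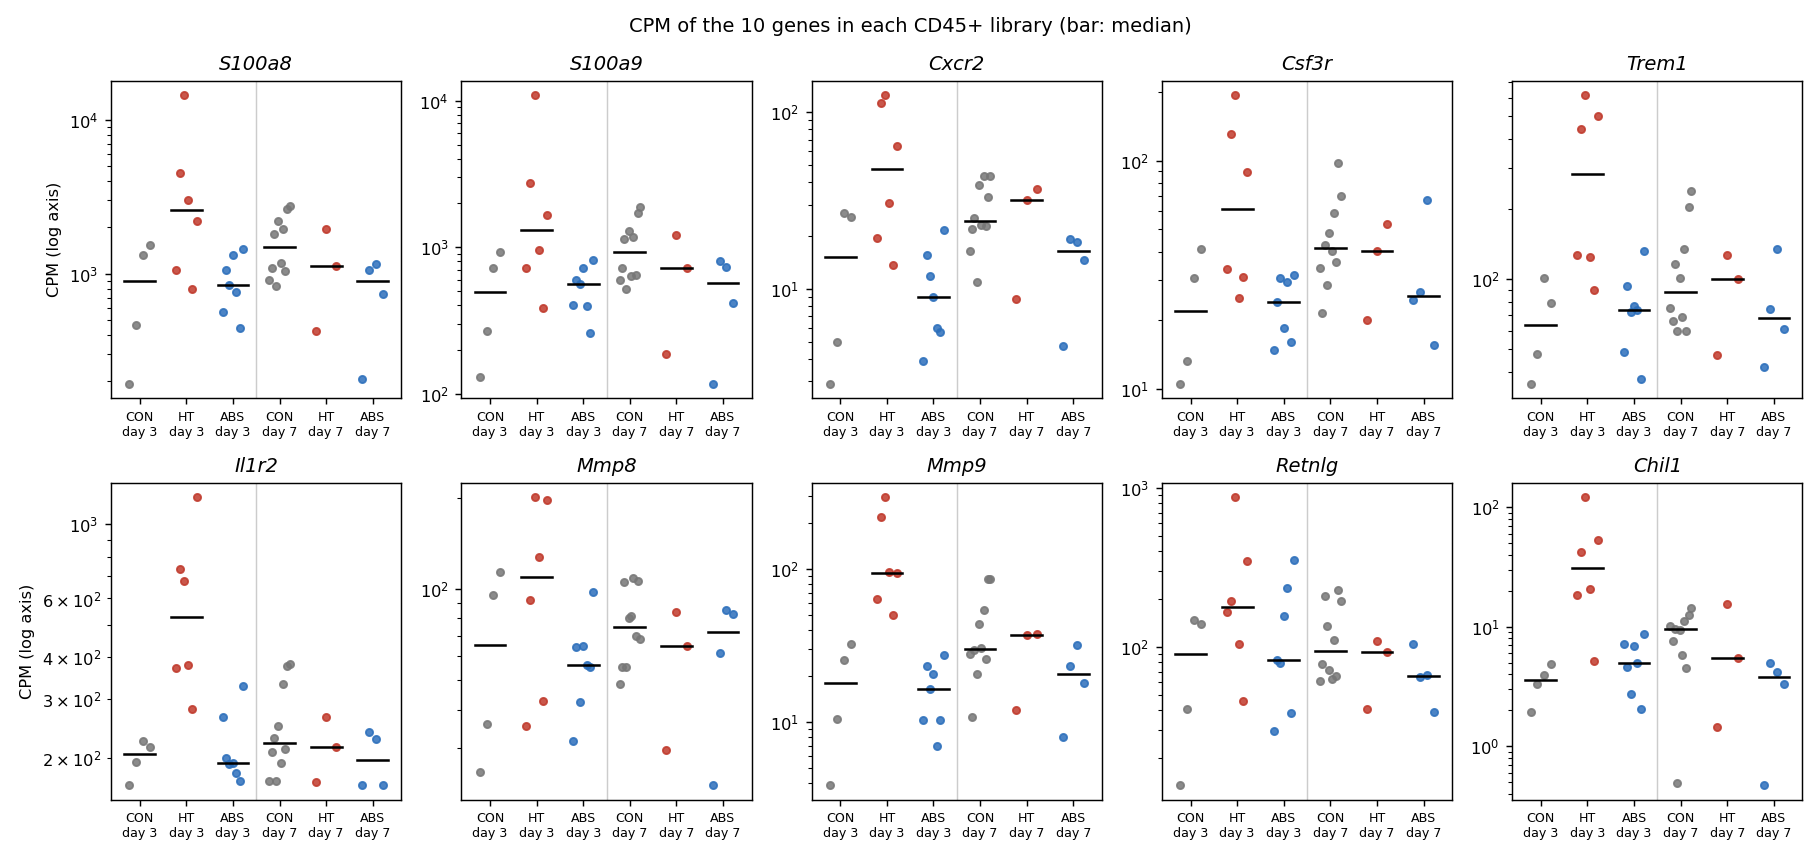
CPM (log axis) of each gene in every CD45+ library of control (CON, grey), histotripsy-treated (HT, red) and histotripsy-abscopal (ABS, blue) tumors on days 3 and 7; points are libraries and bars are group medians. The red points of day 3 lie apart from the grey ones for Il1r2, Mmp9 and Chil1 and overlap them for the other 7 genes. How many of all genes lie apart in this way was not counted.

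Other markers moved in the same libraries. In treated replicate 3 the 10 genes made up 2.84% of all counts, against 0.174% to 0.920% in the other treated libraries. That library also had the highest summed level of 5 erythroid markers, at 7290 CPM, where the other treated libraries held 62.8 to 1896 CPM and controls 71.1 to 995 CPM, and the lowest summed level of 7 T cell markers, at 359 CPM. Summed T cell markers were 727 to 1351 CPM in the other treated libraries and 1557 to 2053 CPM in controls, and 2 of 7, Cd8a (log2 fold change -1.19) and Cd3d (-0.75), were called lower in the treated group, beside 1.59% of all genes called lower. Of the erythroid markers 0 of 4 tested were called, at log2 fold changes of 2.59 to 3.18, and Alas2 was at 0 in controls. The part of these markers in the differences was not tested. Leaving out treated replicate 3, the 10 genes kept positive differences of 0.72 to 3.08, with 4 called: Trem1, Il1r2, Mmp9 and Chil1.

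**Figure D2:**
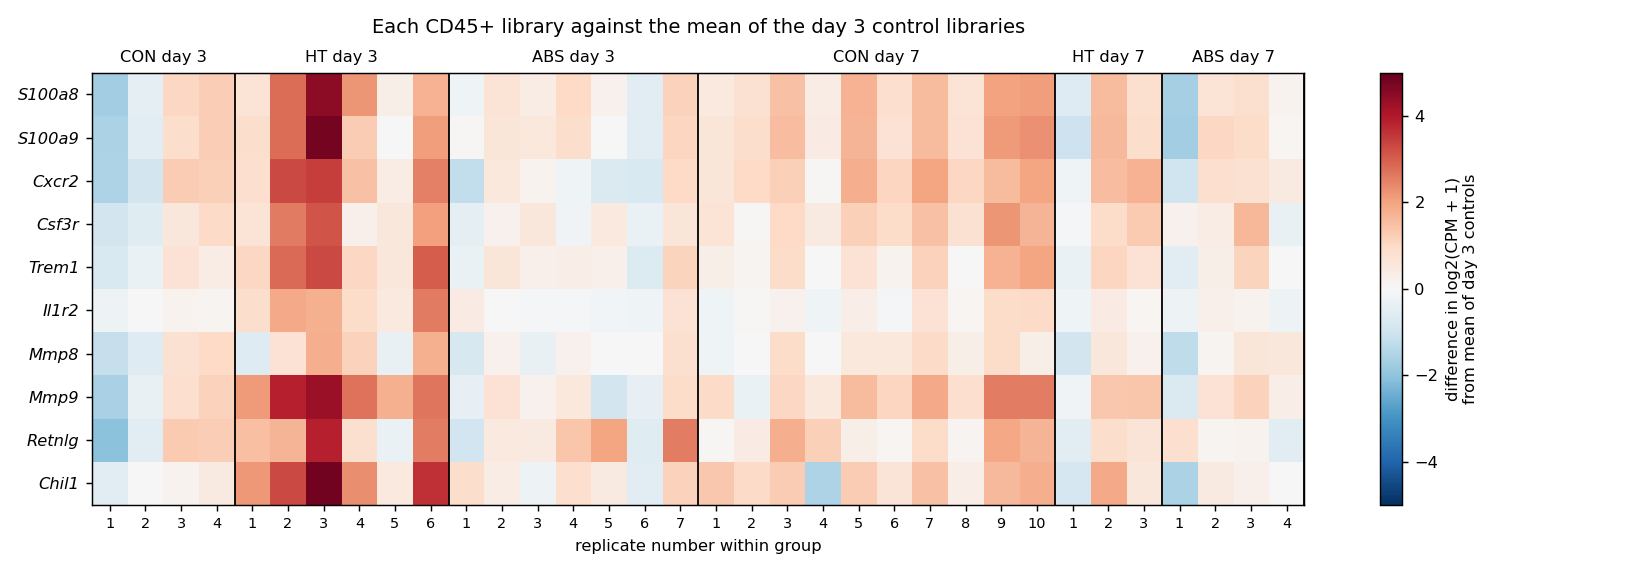
Each CD45+ library (columns, numbered within group) as its difference in log2(CPM + 1) from the mean of the 4 control libraries of day 3, for the 10 genes (rows); red is higher and blue lower. Treated replicate 3 of day 3 is the darkest column, replicates 2 and 6 follow, and replicate 5 is the palest of the treated columns.

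The fixed lists of neighboring genes give the setting. None of 6 genes of early granules, made in marrow progenitors, passed the filter, and Elane and Ms4a3 were at 0 in control and treated libraries. Their summed level was nonetheless 3.89 to 11.9 CPM in treated and 1.31 to 4.08 CPM in control libraries, a difference that was not tested. Of 10 late granule genes 6 were tested and 3 were called higher, beside 6.21% of all genes called higher. The median log2 fold change of those tested was 1.70. Lcn2, the siderophore-binding lipocalin, differed by 3.48 ± 0.95, Hp, haptoglobin, by 1.73 ± 0.37 and Chil3 by 1.67 ± 0.37, while Ngp at 2.74 ± 1.21 was not called. Of 20 genes of mature neutrophils 19 were tested and 14 called higher, beside the same 6.21% of all genes, with a median of 2.11. The smallest adjusted p belonged to Hdc, the enzyme that makes histamine (2.74 ± 0.39), Hcar2, a receptor of hydroxybutyrate and niacin (2.19 ± 0.35), Acod1, which makes itaconate (2.48 ± 0.43), and Ccrl2 (1.47 ± 0.28). Without treated replicate 3, the calls were 2 and 11 in the late granule and mature lists, beside 445 of 10219 genes called higher.

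Of 18 ligands, partners and inhibitors of the 10 genes, 15 were tested and 6 called higher, beside 6.21% of all genes called higher. They included Csf3, which encodes the ligand of Csf3r (2.55 ± 0.51), Cxcl2, a ligand of Cxcr2 (2.13 ± 0.51), Il1b, which Il1r2 captures (1.15 ± 0.26), and Il1rn, the interleukin-1 receptor antagonist (1.23 ± 0.24). Stat3, which acts below Csf3r, stood at -0.11 ± 0.17 and was not called. Of 12 monocyte and macrophage markers 0 were called, with a median of 0.19 and Adgre1 at 0.41 ± 0.27, although 2 had an unadjusted p under 0.05. NK cell (4 tested), B cell (3), dendritic cell (5), fibroblast (1) and endothelial (2) markers had 0 calls, between -0.65 and 1.07, with an unadjusted p under 0.05 for 1 NK cell and 1 dendritic cell gene. Of 7 mast cell, basophil and eosinophil markers 2 were tested and Siglecf, a receptor of eosinophils, was called (3.04 ± 0.66), while Epx, which defines eosinophil granules, was at 0 in control, treated and abscopal libraries of day 3. Melanoma markers gave 0 calls in 5 tested, with Mlana at 0.98 ± 0.89, and 0 of 7 keratinocyte markers passed the filter, Krt14 being at 0.

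**Figure D3:**
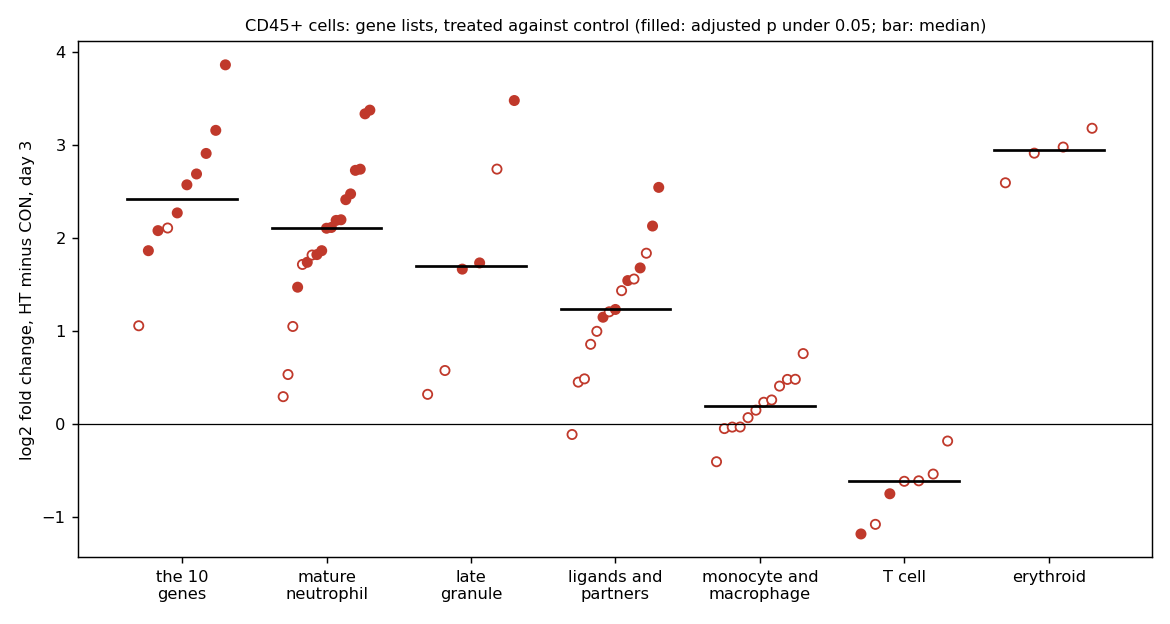
Log2 fold changes (treated minus control, CD45+ cells, day 3) of the 10 genes and of 6 lists; each point is a tested gene, filled when its adjusted p is under 0.05, and bars are medians. The 10 genes and the mature neutrophil list center above 2, the macrophage list near 0 and the T cell list below it, and the erythroid points are high and open.

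Treated and abscopal tumors were then compared on day 3. The same 8 genes were called higher in treated tumors, beside 4.87% of all genes called higher, and the 10 differences ran from 1.17 to 3.25. This comparison shares the treated libraries with the one before. Their high values chose the genes, so these calls too are a description. Mmp9 differed by 3.24 ± 0.46 and Chil1 by 3.25 ± 0.53, both the largest, and Mmp9 was 6.96 to 27.5 CPM in abscopal libraries, all below the lowest treated library. Without treated replicate 3, S100a8 and S100a9 lost their calls, and 6 genes were called. Mmp8 (adjusted p = 0.0982) and Retnlg (adjusted p = 0.258) were not called.

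In abscopal tumors of day 3 none of the 10 genes separated from controls. The lowest, median and highest of the 7 abscopal libraries were 448, 843 and 1458 CPM for S100a8, inside the control range of 193 to 1536 CPM. Cxcr2 gave 3.88, 8.96 and 21.5 CPM, also inside its control range. Over the 10 genes log2 fold changes ran from -0.45 ± 0.65 (Cxcr2) to 0.78 ± 0.74 (Retnlg), and 0 were called by edgeR, with a lowest adjusted p of 0.812. None of the 10 had an unadjusted p under 0.05, and 0% of all genes tested were called, with 796 (7.76%) at an unadjusted p under 0.05. DESeq2 called 12 genes and limma-voom 0, with 0 of the 10 in both. Above all controls were 4 of 7 abscopal libraries for Chil1, 3 for Retnlg, 2 for Il1r2 and 1 for Trem1, and 0 for the other 6 genes. The late granule list did separate: its summed level was 404 to 728 CPM in abscopal and 281 to 396 CPM in control libraries. Of its 6 genes tested 0 were called, with 3 at an unadjusted p under 0.05, namely Chil3 (1.16 ± 0.36), Hp (0.79 ± 0.35) and Ngp (2.54 ± 1.18). The mature neutrophil list overlapped, at 2903 to 4794 CPM against 2241 to 3879 CPM, with 0 of 19 called and 1 at such a p. Standard errors of the 10 differences were 0.32 to 0.80, which sets what could be detected.

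On day 7 no difference between treated and control tumors was called in any of the 10 genes, and 0% of all genes were called. S100a8 measured 424, 1950 and 1131 CPM in the 3 treated libraries, against 839, 1494 and 2763 CPM as the lowest, median and highest of 10 controls. One treated library fell below all controls and the other 2 lay among them. Mmp9, highest in day 3 treated tumors, measured 12.0, 37 and 37.8 CPM beside 10.8, 29.9 and 86.0 CPM in controls. All 10 log2 fold changes were negative, between -0.64 ± 0.40 (Retnlg) and -0.20 ± 0.40 (Cxcr2), with an adjusted p of 0.9999 by edgeR. Unadjusted p was under 0.05 for 0 of the 10 and for 3.15% of all genes, and DESeq2 and limma-voom called 0 genes.

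Abscopal tumors of day 7 also lay lower than controls without a call. S100a8 measured 209, 1057, 1151 and 743 CPM, S100a9 117, 801, 734 and 414 CPM, and Chil1 0.470, 5.01, 4.22 and 3.35 CPM in the 4 libraries. Abscopal replicate 1 was the lowest for each of the 3. The log2 fold changes ran from -1.52 ± 0.64 (Chil1) to -0.31 ± 0.22 (Il1r2). For 6 of the 10 the unadjusted p was under 0.05, as for 7.45% of all genes, but the lowest adjusted p was 0.612 in the edgeR fit, in which 0% of genes were called. Treated minus abscopal differences on day 7 ran from -0.14 to 0.96, with 0 called, 0 at an unadjusted p under 0.05 and 2.69% of all genes at one. DESeq2 and limma-voom called 0 genes in both comparisons.

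**Figure D4:**
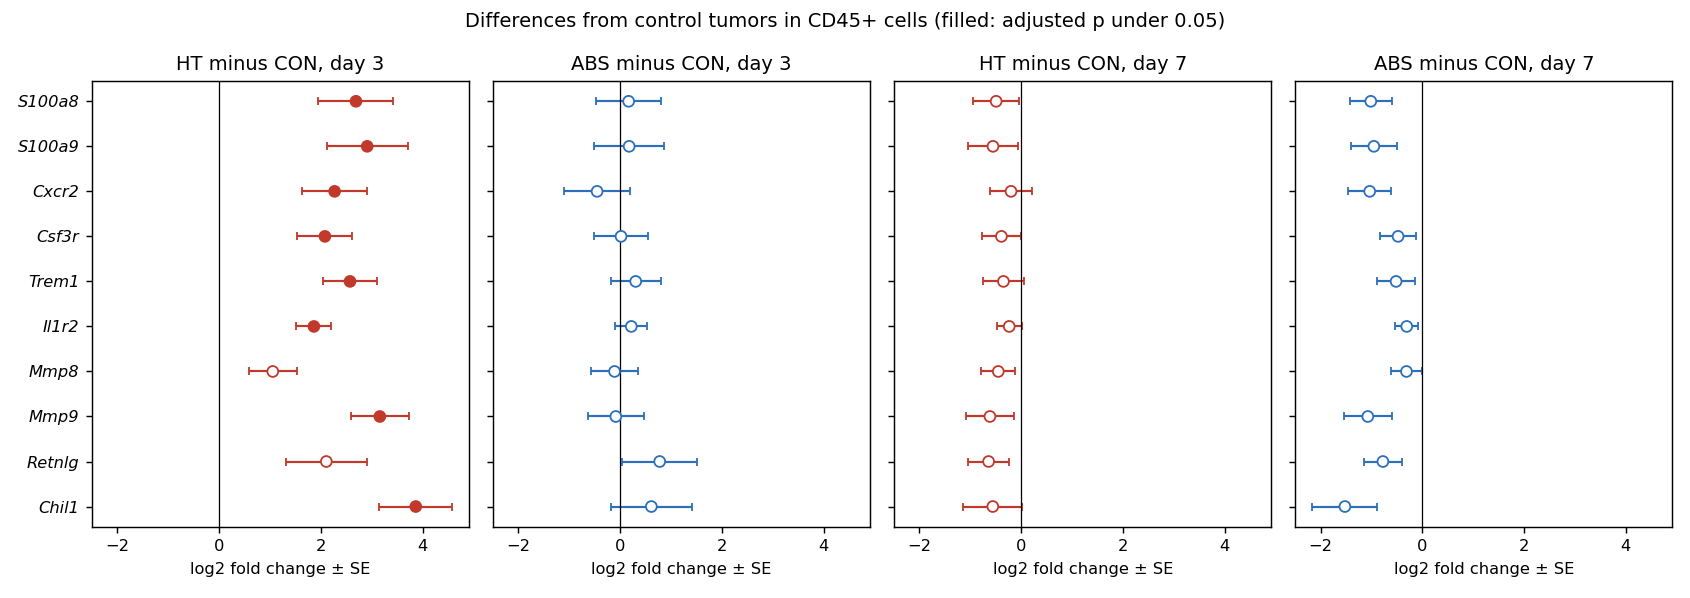
Log2 fold changes ± SE of the 10 genes in CD45+ cells for treated and abscopal tumors against controls on days 3 and 7; filled points have an adjusted p under 0.05. The first panel lies right of 0 for all 10 genes, the second straddles 0, and both panels of day 7 lie left of it with open points.

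The change of the treatment difference between the days was computed in a fit of both days, where the day cannot be told apart from any batch that differs between them. It includes the day 3 difference for which these genes were known, so it is given as a description. All 10 were negative, from -4.40 to -1.46, and 4 were called lower, beside 2.42% of all 11251 genes called lower: Chil1 (-4.40 ± 0.998), Mmp9 (-3.73 ± 0.81), Trem1 (-2.88 ± 0.74) and Il1r2 (-2.07 ± 0.45). S100a8 (-3.15 ± 0.94) and S100a9 (-3.43 ± 1.02) were not called, each with an adjusted p of 0.0601. Of the early granule list Cebpe, a factor needed for late granulocyte maturation, passed the filter in this fit and was called (-3.25 ± 0.79). Calls depended on single libraries. Without treated replicate 1 of day 7 none of the 4 was called, and without replicate 3 only Il1r2 and Mmp9 were. Without replicate 2 all 4 stayed called. Trem1 also lost its call without control replicate 1 or 2 or treated replicate 3 of day 3. The number called rose to 7 without treated replicate 1 or 4 of day 3 or control replicate 4 of day 7. It rose to 8 without treated replicate 5 of day 3. The corresponding change for abscopal tumors called 0 of the 10, with 0% of all genes called, and 0 of the 10 and 6.48% of all genes at an unadjusted p under 0.05. DESeq2 and limma-voom also called 0 of the 10. The differences ran from -2.12 ± 1.12 (Chil1) to -0.17 ± 0.59 (Mmp8).

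Within groups, the 10 genes were higher in day 7 than in day 3 controls by 0.22 to 1.24 on the log2 scale, with 0 called by edgeR, DESeq2 or limma-voom beside 0% of all genes called higher. At an unadjusted p under 0.05 were 2 of the 10, Csf3r and Mmp9, and 5.01% of all genes. In treated tumors the day 7 minus day 3 values were -3.16 to -1.24. Chil1, Mmp9, Trem1 and Il1r2 were called lower and the other 6 were not, beside 3.33% of all genes called lower. Since the day 3 treated values chose the genes, this too is a description from which nothing is read. Without treated replicate 1 or 3 of day 7 the number called was 0, and without treated replicate 5 of day 3 it was 7. Abscopal differences between days were -1.01 to 0.51, with 0 of the 10 called by edgeR, DESeq2 or limma-voom and 0 at an unadjusted p under 0.05, beside 0.747% of all genes called and 14.6% at such a p. The median of S100a8 on days 3 and 7 was 899 and 1494 CPM in controls, 2614 and 1131 CPM in treated and 843 and 900 CPM in abscopal tumors. For the last of these the mean, 922 and 790 CPM, and the fitted difference of -0.22 ± 0.59 went the other way.

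By median over treated libraries of day 3, the 3' counts ordered the genes as S100a8 (2614 CPM), S100a9 (1301), Il1r2 (527), Trem1 (284), Retnlg (180), Mmp8 (110), Mmp9 (94.8), Csf3r (61.4), Cxcr2 (47.7) and Chil1 (31.3). Ranges of neighbors overlapped at each step of this order. The alarmins held 60.2% to 89.1% of the counts of the 10 genes in treated and 55.4% to 79.0% in control libraries.

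Levels of the 10 genes followed each other from library to library. Over 34 CD45+ libraries, after the mean of each group was removed from log2(CPM + 1), Pearson's r of the 45 pairs was 0.52 to 0.97 with a median of 0.75, and Spearman's rho was 0.53 to 0.97. S100a8 and S100a9 were the closest pair (r = 0.97, rho = 0.97, both permutation p = 1e-05, the smallest that 100000 permutations can give, and adjusted p = 2.14e-05 and 1.87e-05 over 45 pairs). Without the 2 libraries farthest from the median of S100a8, group means removed, their r was 0.97, and it was 0.97 within day 3 and 0.99 within day 7. Retnlg and Chil1 were the loosest pair, at r = 0.52 (permutation p = 0.00218, adjusted p = 0.00223) and rho = 0.53 (permutation p = 0.00236, adjusted p = 0.00236). Without the 2 libraries farthest from the median of Retnlg, their r was 0.43, and it was 0.74 within day 3 and 0.19 within day 7. Over all 45 pairs no adjusted p of r exceeded 0.00257. Retnlg had the lowest median r with the other genes, 0.65, and S100a8, S100a9 and Trem1 the highest, each 0.84. Among 10130 other genes tested on both days, those whose levels ran closest to the mean of the 10 were Stfa2l1 (r = 0.93), Fpr1 (0.91), Clec4d (0.91), Fpr2 (0.90), Wfdc21 (0.90), Sgms2 (0.89), Asprv1 (0.89) and Hdc (0.86), a description over libraries that share depth and sort.

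**Figure D5:**
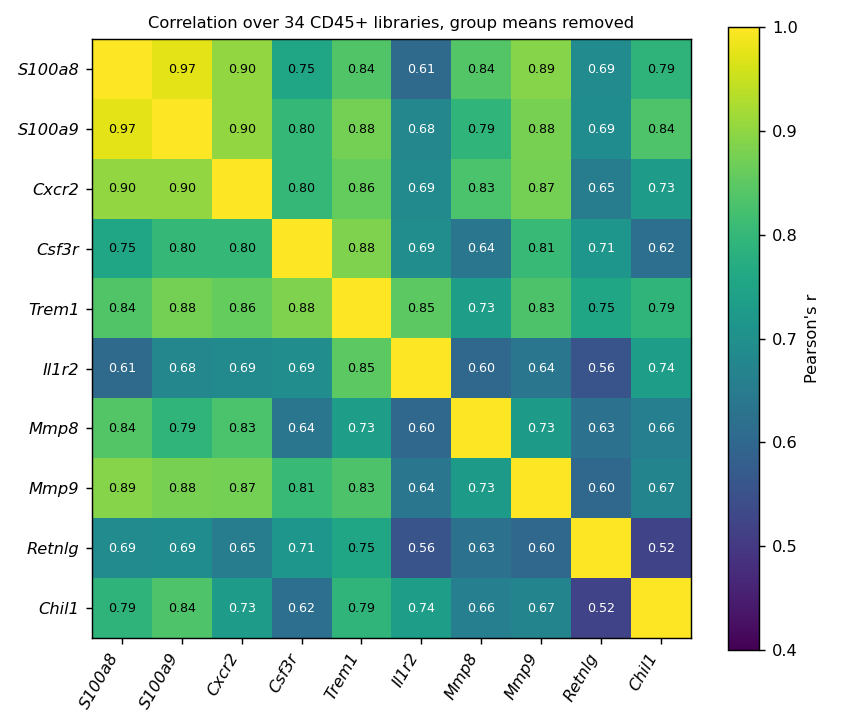
Pearson's r of log2(CPM + 1) between each pair of the 10 genes over 34 CD45+ libraries after removal of group means; yellow cells are higher and the diagonal is each gene with itself. The alarmin pair is the brightest cell off the diagonal and the row of Retnlg is the darkest.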

How the data were processed

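RNA of CD45+ and CD45- cells sorted from B16F10 tumors was measured in 70 libraries with QuantSeq. The authors trimmed reads with Trim Galore 0.5.0, aligned them with STAR 2.6.0 to GRCm38, collapsed molecular identifiers with a Lexogen tool, counted per gene with featureCounts and deposited raw counts, a table per fraction and day. The strand setting is not given in the sources used here. Both CD45+ tables had 1 line without a name, holding 100% of the totals, which was left out. Of the columns, 0 had no sample. Of the named lines, 120 shared a symbol with another.

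Groups followed the sample labels. The 10 genes, the other lists, the tests and the alternatives were chosen with earlier results of these data known. Counts were tested with edgeR 4.0.16 (R 4.3.3): TMM factors, filterByExpr with at least 10 counts and a total of at least 15, the quasi-likelihood F test, 1 fit per table with all 3 groups, and Benjamini-Hochberg adjustment over all genes tested, at 0.05. The difference between days was a contrast in a fit of both tables of a fraction. Standard errors are log2 fold changes divided by the root of the F statistic. CPM is per 1000000 named counts and fold changes are TMM-scaled. The fit was tested on simulated data. No pair of 208 library pairs within groups agreed within sampling noise (smallest chi-square per degree of freedom 2.09). Alternatives were DESeq2 1.42.0, limma-voom 3.58.1, library totals, no filter, only the groups compared, libraries of at least 1000000 counts, each library left out and the replicate number as a block.

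Named were the 10 genes, from each neutrophil list and the ligand list up to 4 tested genes with the smallest adjusted p, the 8 genes closest to the mean of the 10, and Ptprc, Ly6g, Adgre1, Krt14 and Mlana. Elane, Ms4a3, Epx, Alas2, Siglecf, Cd8a, Cd3d, Stat3, Adam8 and Ppbp were named after their values were seen. Correlations used 100000 two-sided permutations with a pseudocount of 1 CPM. Coordinates are those of GENCODE for GRCm38.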

Additional observations from a re-analysis of the deposited data

Results flagged for a closer look

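Within groups of 4 to 10 libraries, 50 combinations of gene and group were tested for a library standing apart by Dixon's test at 95%, which chance alone meets in about 1 of 20. It marked 3, all in CD45+ treated replicate 3 of day 3: S100a8 at 14404 CPM (next 4500 CPM), S100a9 at 10868 CPM (next 2731 CPM) and Retnlg at 877 CPM (next 350 CPM). The change of the treated effect from day 3 to day 7 was called for Chil1 (log2 difference -4.40), Mmp9 (-3.73), Trem1 (-2.88) and Il1r2 (-2.07), where the effect was lower on day 7. The genes were chosen by their day 3 treated values, which enter this difference, so it is a description and no independent test. Without treated replicate 1 of day 7 none of the 4 was called (edgeR adjusted p 0.077 to 0.152).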

How the results depend on the processing

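Of the 10 genes, the number called in CD45+ treated minus control tumors of day 3, 8 in the report, was 4 by limma-voom, 4 in a fit of only the groups compared, 10 without a filter and between 4 and 9 when a library was left out; it was 4 without control replicate 1, 2 or 3 or treated replicate 3. Against abscopal tumors it was 5 by limma-voom. For the change between days, 4 in the report, it was 7 by DESeq2, 2 by limma-voom, 10 without a filter and 0 to 8 when a library was left out. Within treated tumors, day 7 minus day 3, 4 in the report, it was 10 without a filter and 0 to 7 when a library was left out. Without a filter, counts that were 0 became 1 and 6 (abscopal minus control, days 3 and 7), 4 (abscopal change between days), 6 (controls between days), 1 (abscopal between days) and 1 in CD45- abscopal minus control of day 7. In the CD45+ fits, in this order, all genes called were 153 of 30097, 102 of 29636, 76 of 33634, 106 of 33634 and 273 of 33634. The causes were not tested. Other counts of the 10 stayed within 1.5 times.

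A pair of list genes turned direction, neither called, in treated minus control of day 3: Adam8 (log2 fold change 0.29) at -0.000485 with library totals, and Ppbp (1.43) at -0.064 by limma-voom. When a library was left out, Adam8 ran from -0.14 to 0.52 and Ppbp from -1.43 to 3.29, each lowest without treated replicate 3. All genes called in treated minus control of day 3 numbered 451 to 1256 over the tools and settings with the filter, 1244 without it, and 338 to 1112 when a library was left out. Replicate numbers could not settle whether samples pair, since they run within each group and no label ties a library to a mouse. Same-numbered treated and abscopal CD45+ libraries correlated between 0.014 and 0.32 on day 3 in their deviations from group means. There 3 of 6 matched best with their own number. On day 7 the values were 0.087 to 0.34, with 3 of 3 matching best. Pairs with a control library, which comes from another mouse, correlated between -0.22 and 0.37, with at most 2 of 4 matching best. Treated and abscopal tumors were compared as unpaired. With the replicate block, 9 of the 10 were called on day 3, Retnlg added, and 5 for the change between days. Depth limits Chil1 and Cxcr2 most, with as few as 1 and 3 counts in a CD45+ library.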
